A study of Mus musculus with 8 samples.

Results

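The 9 fibrillar collagen genes Col1a1, Col1a2, Col3a1, Col5a1, Col5a2, Col5a3, Col11a1, Col24a1 and Col27a1 were followed in RNA from mouse heart cells. They were taken by symbol from 37991 genes of the deposited count table, and all 9 passed the filter on low counts. Col2a1 and Col11a2, the other fibrillar collagen genes, were counted with the other collagens below. The 9 were selected on their measured single over double colored counts, with results of these data in view, so their differences between the groups are given here as a description, with no test of their own. The mice carried the alpha-MHC MERCREMER transgene, a tamoxifen-activated Cre recombinase under the alpha myosin heavy chain promoter of cardiomyocytes, and the MADM reporter, in which exchange between homologous chromosomes can yield daughter cells of 1 color once the cell divides. All hearts had received adenovirus carrying 4 cell cycle genes (4F), and adult cardiomyocytes were isolated 2 weeks later. The 4 single colored libraries are labelled as cells that performed the cell cycle, and the 4 double colored libraries as cells given the same treatment that did not. No uninjected hearts were among the samples, the genotype and the injection are shared by both groups, and the labels name neither the age of the mice nor whether replicates came from separate animals, so that the spread between libraries may be partly technical.

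Fibrillar collagens are made as procollagen chains that fold into a triple helix, are trimmed outside the cell and assemble into the banded fibrils that give the heart wall its tensile strength. Types I and III make up the bulk of cardiac fibrils, types V and XI sit inside fibrils and set where they start and how thick they grow, and types XXIV and XXVII are later described, less abundant chains with shorter or interrupted helices. In the heart these chains come mainly from fibroblasts, which lay down more of them in scars.

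The libraries held 23820700 to 30082278 counted reads, and 3503353 to 6112595 of them were nuclear-encoded. The share from mitochondrially encoded genes was 77.5% to 85.9% in the single colored and 84.2% to 88.3% in the double colored libraries, lower in the single colored one of each number, and TMM factors were 0.953 to 1.44 and 0.733 to 0.972. The part of this difference in the collagen values was not tested beyond the fit without mitochondrially encoded genes, in which the median log2 fold change of the 9 genes was 1.22. Levels are given as CPM, which is a gene's reads relative to the TMM-scaled library total, and, where genes are compared, as RPKM, which is CPM per kb of exon length. Cardiomyocyte markers were present in every library. Their summed level was 5252 to 9236 CPM in the single colored and 10147 to 11053 CPM in the double colored libraries, lowest in single colored replicate 1. All 8 had negative log2 fold changes, beside 6313 of all 12466 tested genes. With library totals alone, which moved the median of all genes to 0.48, 3 of the 8 were negative. Lymphocyte markers ran the other way, at 16.0 to 30.7 against 1.55 to 4.06 CPM, and macrophage markers at 120 to 221 against 83.1 to 110 CPM. Smooth muscle and pericyte markers summed to 314 to 392 against 407 to 545 CPM with no overlap. Most of this sum came from Rgs5 (means of 231 and 305 CPM) and Abcc9 (91.4 and 137 CPM), and each marker alone overlapped between the groups. Of the 6 tested 4 had negative and 2 positive log2 fold changes, and untested Cnn1 had 160 against 19 reads. Endothelial markers were at 114 to 142 against 117 to 157 CPM. The part of these cell types in the results below was not tested.

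Together the 9 genes took 0.331% to 1.04% of the nuclear-encoded reads in single colored libraries and 0.106% to 0.306% in double colored ones, so that every single colored library was higher. By log2 fold change 8 of the 9 genes were higher in single colored cells, with a median of 1.22. Of all 12466 tested genes 49.4% were higher, and their median was −0.01. Col24a1, Col11a1 and Col1a1 passed an adjusted p of 0.05 over all genes (edgeR quasi-likelihood test), and none passed downward. Over all tested genes 2.48% passed, 2.32% upward and 0.16% downward. Of the 9 genes, 4 (these 3 and Col1a2) had no overlap between the groups, with single colored libraries above. Over all tested genes 9.14% had no overlap in either direction and 5.37% had it in this one. Because the genes were proposed with this contrast known, nothing is read from these counts. With the replicate number as a block 7 genes passed, Col1a2, Col3a1, Col5a1 and Col5a2 being added, where over all tested genes 7.53% passed, 4.97% upward and 2.57% downward. In bulk RNA, fewer cells of a type and less RNA per cell cannot be told apart.

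**Figure D1:**
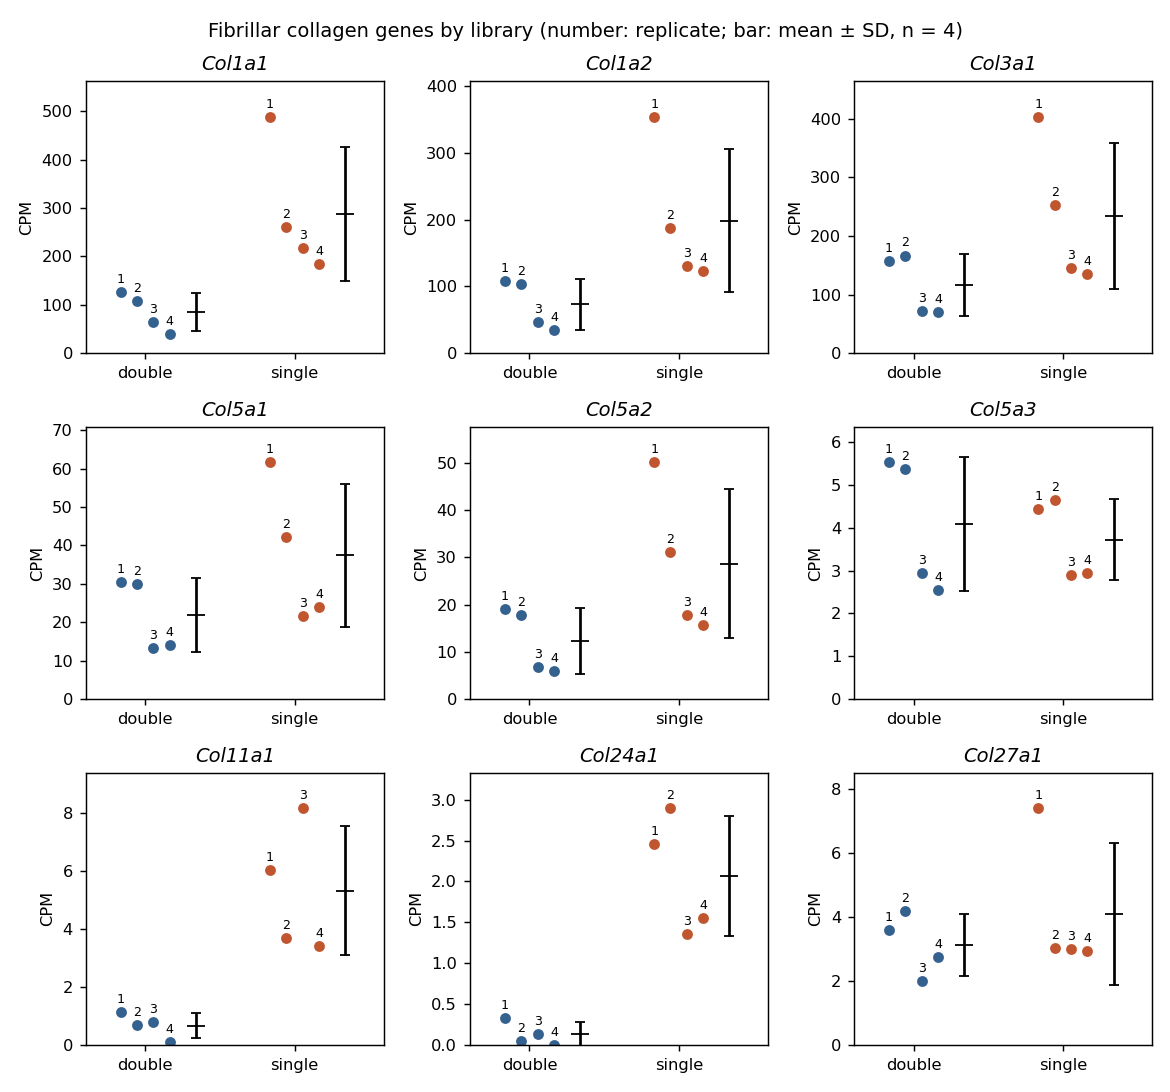
CPM of each fibrillar collagen gene in every library (points, numbered by replicate), double colored in blue and single colored in orange, with the mean ± SD of 4 libraries beside each group; each vertical axis starts at 0 and has its own scale. Col1a1, Col1a2, Col11a1 and Col24a1 do not overlap between groups. Replicates 1 and 2 lie above 3 and 4 in both groups for Col1a1, Col1a2, Col3a1, Col5a1, Col5a2, Col5a3 and Col27a1.

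Type I collagen is the main fibril former of the heart and is built from chains of both Col1a1 and Col1a2. Col1a1 (ENSMUSG00000001506, mm9 chromosome 11, 94797538 to 94814356) encodes the alpha 1 chain, present in a pair in each type I molecule. It stood at 489, 261, 217 and 185 CPM in single colored replicates 1 to 4 and at 127, 107, 64.9 and 40.2 CPM in the double colored replicates 1 to 4. The lowest single colored library lay above the highest double colored one. The log2 fold change was 1.76 ± 0.39 (SE), and the ratio of group means 3.39. The edgeR adjusted p was above 0.05 without replicate 2 or 3 of the double colored or 1, 2 or 3 of the single colored group, and reached 0.285 without single colored replicate 1, where the log2 fold change was 1.37. Of the exon length of Col1a1, 1.66% also belongs to a gene on the opposite strand, and the sources used here do not give the strand setting of the counts.

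Col1a2 (ENSMUSG00000029661, chromosome 6, 4454814 to 4491543), the alpha 2 chain of the same molecule, stood at 354, 187, 131 and 123 CPM in the single colored and at 108, 104, 46.6 and 34.4 CPM in the double colored libraries. The groups did not overlap, and the log2 fold change was 1.44 ± 0.47. Without single colored replicate 1 it was 1.00. Per exon length, Col1a1 was 2.56- to 3.08-fold above Col1a2 in single colored libraries and 1.91- to 2.58-fold above it in double colored ones. These ranges meet at their ends, so that the balance of the type I chains overlapped between the groups. Within each replicate number this ratio was higher in the single colored library.

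Col3a1 (ENSMUSG00000026043, chromosome 1, 45368383 to 45406551) encodes the single chain of type III collagen, which joins type I in fibrils of distensible tissues. Its single colored levels were 404, 252, 145 and 135 CPM, and its double colored levels 158, 167, 71.6 and 70.5 CPM. Single colored replicates 3 and 4 lay below double colored replicates 1 and 2, so the groups overlapped. Within each replicate number the single colored library was higher, by 1.51- to 2.56-fold. The log2 fold change was 1.00 ± 0.42, and 0.60 without single colored replicate 1.

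Type V collagen nucleates type I fibrils and limits their thickness. Col5a1 (ENSMUSG00000026837, chromosome 2, 27741945 to 27895034) was measured at 61.6, 42.3, 21.7 and 23.9 CPM in the single colored and 30.4, 29.99, 13.2 and 14.1 CPM in the double colored libraries. Col5a2 (ENSMUSG00000026042, chromosome 1, 45431166 to 45560127) was measured at 50.1, 31.1, 17.8 and 15.8 CPM in the single colored and 19.0, 17.8, 6.70 and 5.98 CPM in the double colored libraries. Both overlapped between the groups, with log2 fold changes of 0.77 ± 0.41 and 1.22 ± 0.54. Without single colored replicate 1 these were 0.41 and 0.80. Within each replicate number the single colored library was higher, by 1.41- to 2.02-fold for Col5a1 and by 1.75- to 2.65-fold for Col5a2. Col5a3 (ENSMUSG00000004098, chromosome 9, 20574494 to 20619511), a further type V chain of narrower distribution, stood apart from them. It was at 4.43, 4.64, 2.89 and 2.94 CPM in the single colored and 5.53, 5.36, 2.94 and 2.55 CPM in the double colored libraries, and the groups covered nearly the same range. Its log2 fold change was −0.13 ± 0.28, and it turned to 0.38 with scaling by library totals alone, a setting that moved the median of all genes to 0.48, and to 0.04 and 0.02 without double colored replicate 1 or 2.

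Col11a1 (ENSMUSG00000027966, chromosome 3, 113733458 to 113923636) encodes a type XI chain, best known from cartilage, that is close in sequence and role to the alpha 1 chain of type V. It had 230, 106, 314 and 86 reads in single colored libraries (6.03, 3.70, 8.17 and 3.41 CPM) and 27, 15, 18 and 2 reads in double colored ones (1.13, 0.682, 0.778 and 0.0836 CPM). The highest single colored library was replicate 3, not replicate 1 as for the type I, III and V chains other than Col5a3. The group means stood 7.97-fold apart (log2 fold change 2.99 ± 0.46), and leaving out any 1 library gave 2.62 to 3.38. Per exon length Col11a1 reached 0.0770 to 0.331 of the Col5a1 level in single colored libraries and 0.00520 to 0.0519 of it in double colored ones, with no overlap.

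Col24a1 (ENSMUSG00000028197, chromosome 3, 144955436 to 145214975), the chain of type XXIV collagen, a type described in bone and cornea, was the scarcest of the 9 per exon length. It had 94, 83, 52 and 39 reads in single colored libraries (2.46, 2.90, 1.35 and 1.55 CPM). Double colored libraries held 8, 1, 3 and 0 reads (0.335, 0.0454, 0.130 and 0 CPM). The count of 0 in double colored replicate 4 allows a level of up to 0.125 CPM (3 reads, counting error only). All single colored libraries were above all double colored ones, with group means 16.2-fold apart and a log2 fold change of 3.96 ± 0.61. Leaving out any 1 library gave 3.54 to 5.05, highest without double colored replicate 1, which held 8 of the 12 double colored reads. With 12 reads in the double colored group the size of this difference is the least precise of the 9.

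Col27a1 (ENSMUSG00000045672, chromosome 4, 62875038 to 62996025), the chain of type XXVII collagen, is found in growing cartilage, and its groups overlapped. Single colored levels were 7.42, 3.04, 2.99 and 2.94 CPM, and double colored levels 3.60, 4.18, 1.99 and 2.76 CPM. Only single colored replicate 1 lay above the double colored range. The log2 fold change of 0.39 ± 0.32 was −0.07 without that library. In the authors' deposited table, whose sign is opposite and is turned here, the 9 genes had log2 fold changes of −0.15 (Col5a3) to 3.96 (Col24a1). The lowest FDR among them in the authors' deposited table was 0.185, for Col11a1 and Col24a1. It was also the lowest of all 15711 genes with an FDR there. No gene in the authors' table therefore passed the threshold used here for adjusted p.

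The order of levels per exon length was nearly the same in both groups. In single colored cells it ran from Col1a1 (43.9 ± 21.0 RPKM, SD, n = 4) over Col3a1 (27.9 ± 14.9), Col1a2 (16.4 ± 8.85), Col5a1 (4.40 ± 2.19) and Col5a2 (2.99 ± 1.65) to Col11a1 (0.552 ± 0.231), Col5a3 (0.547 ± 0.138), Col27a1 (0.314 ± 0.170) and Col24a1 (0.271 ± 0.0966). In double colored cells Col3a1 (13.9 ± 6.30 RPKM) and Col1a1 (12.9 ± 6.01) changed places, and Col11a1 (0.0692 ± 0.0450) ranked below Col5a3 (0.601 ± 0.230) and Col27a1 (0.241 ± 0.0738). The intervals of mean ± SD of neighbours overlapped at 6 of 8 steps in each group, the exceptions being Col1a2 to Col5a1 and Col5a2 to Col11a1 in single colored cells and Col5a3 to Col27a1 and Col27a1 to Col11a1 in double colored cells.

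Set against one another, the genes did not keep their proportions, and shares within a library do not depend on the scaling between libraries. Col1a1 made up 41.8% to 49.2% of the summed RPKM of the 9 genes in single and 30.3% to 39.3% in double colored libraries. Col3a1 made up 25.7% to 31.6% against 33.8% to 41.5%. Neither pair of ranges overlapped, and the ratio of Col3a1 to Col1a1 was 0.522 to 0.756 in single and 0.862 to 1.37 in double colored libraries. Col5a1 (3.80% to 5.23% against 6.16% to 8.22%) and Col5a3 (0.391% to 0.718% against 1.51% to 1.85%) also took smaller shares in single colored libraries with no overlap, as did Col27a1 (0.245% to 0.376% against 0.513% to 1.05%). Col11a1 (0.375% to 1.26% against 0.0428% to 0.320%) and Col24a1 (0.194% to 0.400% against 0% to 0.0816%) took larger ones, again with no overlap. Col1a2 (16.0% to 17.5% against 14.0% to 16.7%) and Col5a2 (2.74% to 3.41% against 2.77% to 3.67%) overlapped. Since shares sum to a whole, a larger one for Col1a1 lowers the others, and these shares come from the contrast on which the genes were selected.

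**Figure D2:**
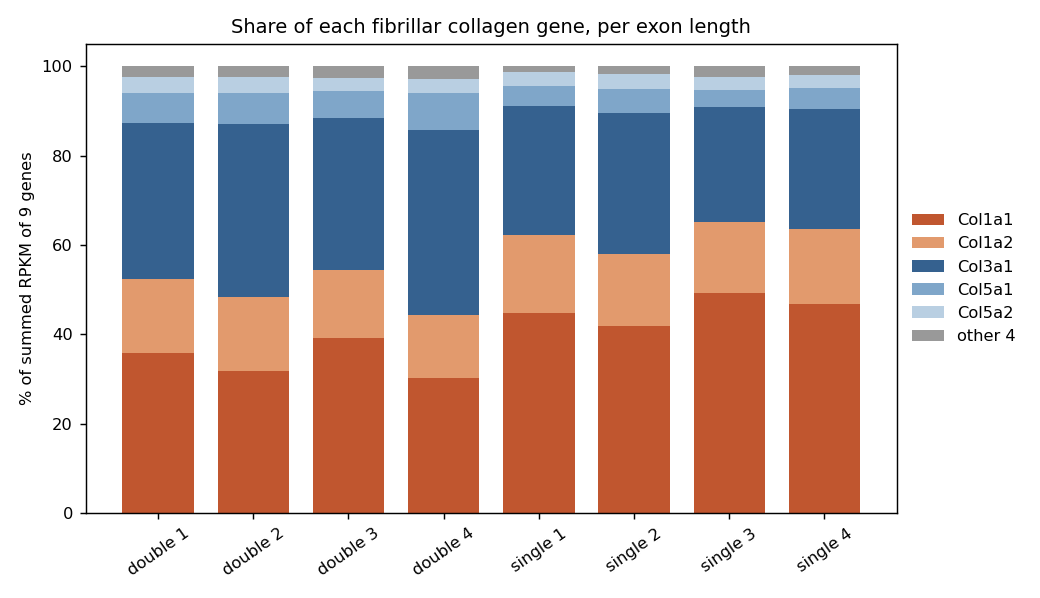
Share of each gene in the summed RPKM of the 9 fibrillar collagen genes, in percent, for every library (bars, 4 double colored at left and 4 single colored at right); the 4 genes of lowest level are drawn together. Col1a1 takes at least 41.8% in each single colored library and at most 39.3% in each double colored one, and Col3a1 the reverse order.

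The fibroblast markers overlapped between the groups in their summed level. Of 12 tested fibroblast markers 1 rose (Thy1, log2 fold change 1.14, edgeR adjusted p = 0.0345), 7 had positive and 5 negative log2 fold changes, and the median was 0.14. Over all tested genes 2.32% rose and 49.4% had positive log2 fold changes. With library totals alone 10 of the 12 markers were positive and their median was 0.60. Their summed level was 158 to 356 CPM in the single colored and 202 to 357 CPM in the double colored libraries, and no defining marker was at 0 in any library. The other 11 markers ran from a log2 fold change of −0.84 for Gsn, an actin-severing protein, over −0.79 for Tcf21, −0.54 for Pi16, −0.44 for Dpt, −0.10 for Dcn, 0.09 for Pdgfra, 0.19 for Fbln1, 0.20 for Wt1, 0.22 for Mfap5 and 0.29 for Lum to 0.85 for Cdh11, a fibroblast cadherin. None of these passed the threshold (adjusted p at least 0.126 with edgeR), and at an unadjusted p under 0.05 Thy1 was higher and Gsn and Dpt were lower. Like Thy1, all 6 tested lymphocyte markers were called higher (median log2 fold change 2.75). Which cells gave the Thy1 reads was not tested. Per 1000 CPM of summed fibroblast markers, Col1a1 reached 856 to 1375 CPM in the single colored and 176 to 394 CPM in the double colored libraries. The same ratio was 6.93 to 9.50 against 0 to 1.04 for Col24a1 and 12.5 to 18.3 against 11.1 to 17.1 for Col5a3. On this scale 7 of the 9 genes, all but Col5a3 and Col27a1, had every single colored library above every double colored one. Over all tested genes 5.01% were placed so on this scale and 5.27% had no overlap in either direction, and since the genes were selected on this contrast nothing is read from the count. Over all tested genes 2.48% passed the threshold and 49.4% had positive log2 fold changes. All 6 markers of activated fibroblasts stood higher in single colored cells by log2 fold change (median 0.98), and none passed the threshold. Their summed level, on average most of it from Postn, a matricellular protein of healing tissue, was 114 to 449 CPM in the single colored and 59.6 to 212 CPM in the double colored libraries, and Cthrc1, a secreted protein of activated fibroblasts, had no reads in 1 double colored library. The part of fibroblast number or state in the collagen levels was not tested.

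**Figure D3:**
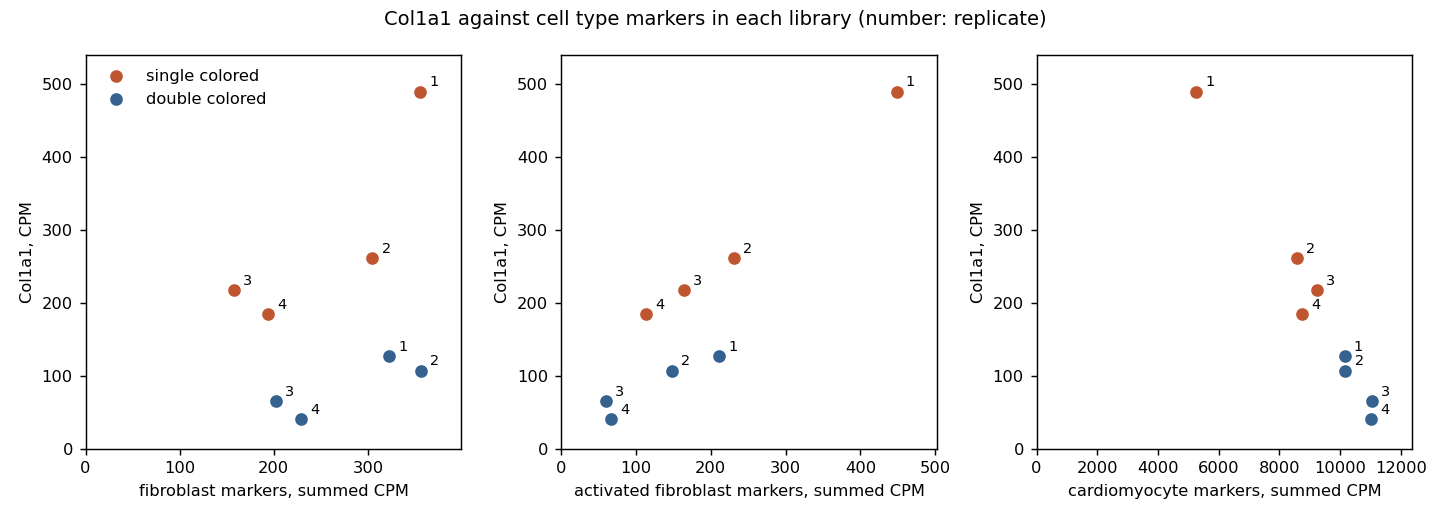
Col1a1 in CPM (vertical axis) against the summed CPM of fibroblast, activated fibroblast and cardiomyocyte markers (horizontal axes) in each library, numbered by replicate, with single colored libraries in orange and double colored ones in blue. The groups overlap in fibroblast markers (158 to 356 and 202 to 357 CPM) at separate Col1a1 levels, and they do not overlap on the cardiomyocyte axis.

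Across the 8 libraries, which share their groups and replicate numbers, the mean pattern of Col1a1, Col1a2 and Col3a1 was most like that of Lox (Pearson r of log2 CPM 0.989), which encodes lysyl oxidase, the enzyme that crosslinks collagen, followed by Enpp1 (0.987), the TGF-beta receptor gene Tgfbr1 (0.986) and Fn1 (0.978), which encodes fibronectin. Ctsc, Uhrf2, Dock11 and Sirpa (0.977 to 0.974) completed the 8 nearest genes. Members and genes without a symbol or with a predicted-gene symbol were left out of both rankings. Among the collagens themselves Col5a2 (0.988) and Col5a1 (0.943) lay nearest to this pattern and Col5a3 (0.536) farthest. The members nearest to Col24a1 were Col11a1 (0.926) and Col1a1 (0.913), and Col5a3 (0.144) was farthest. Outside the members Col24a1 had other neighbours. Its nearest genes were Timp1 (0.991), an inhibitor of matrix proteases, Diaph1 (0.990) and Gpnmb (0.974), followed by Csf2rb2, Pak3, the leukocyte integrin gene Itgb2, Ms4a6d and Ciz1 (0.974 to 0.963). Ciz1 shares 9.79% of its exon length with a gene on the opposite strand. These likenesses are a description of 8 libraries that differ by group, and no p is given.

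Promoters are shown for the genes with the largest and the smallest differences and for the type III chain in between, since the members did not move alike. RefSeq promoters (GRCm38.p6) were found for 7 of the 9 genes, so that Col1a1 and Col5a2 were not searched. Each line gives the 250 bases before the annotated start, 5′ to 3′, with matches to the motifs searched in capitals.
Col24a1, chr3:145292222-145292471, plus strand: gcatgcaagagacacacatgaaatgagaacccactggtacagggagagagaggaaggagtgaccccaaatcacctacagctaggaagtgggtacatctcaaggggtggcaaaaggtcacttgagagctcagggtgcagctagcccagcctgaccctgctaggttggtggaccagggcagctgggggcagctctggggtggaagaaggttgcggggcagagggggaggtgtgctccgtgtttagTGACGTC
Col11a1, chr3:114030290-114030539, plus strand: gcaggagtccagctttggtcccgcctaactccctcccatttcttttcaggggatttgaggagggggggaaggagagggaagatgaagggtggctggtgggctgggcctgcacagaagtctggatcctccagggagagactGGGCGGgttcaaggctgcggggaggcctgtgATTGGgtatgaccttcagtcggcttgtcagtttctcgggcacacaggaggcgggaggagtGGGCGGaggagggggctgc
Col3a1, chr1:45311288-45311537, plus strand: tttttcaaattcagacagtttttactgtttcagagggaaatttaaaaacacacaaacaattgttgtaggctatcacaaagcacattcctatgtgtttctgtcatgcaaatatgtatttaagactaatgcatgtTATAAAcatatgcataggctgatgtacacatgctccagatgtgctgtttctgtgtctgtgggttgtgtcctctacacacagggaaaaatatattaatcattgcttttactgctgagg
Col5a3, chr9:20815068-20815317, minus strand: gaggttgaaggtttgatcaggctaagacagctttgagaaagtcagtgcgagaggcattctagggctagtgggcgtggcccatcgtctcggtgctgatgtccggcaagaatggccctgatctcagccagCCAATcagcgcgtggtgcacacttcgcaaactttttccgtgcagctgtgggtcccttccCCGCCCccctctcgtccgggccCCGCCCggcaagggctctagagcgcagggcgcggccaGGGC
The motifs, searched on both strands of the 300 bases around each start, were CCAAT (the CCAAT box), GGGCGG (the GC box), TATAAA (the TATA box), TGACGTCA (the cyclic AMP response element) and TGANTCA (the AP-1 site). The window of Col24a1 held TGACGTCA at positions −7 to 1, where 1 is the first transcribed base and there is no position 0, so that its last base is not among those printed. This motif occurred in 1.79% of all 32851 promoter windows and in none of the other member windows searched. CCAAT was found in Col11a1, Col1a2 and Col5a3 (37.4% of all promoters), GGGCGG in 5 of the 7 members searched (35.7%) and TATAAA in Col3a1 (13.6%). Of the 250 bases before the start of Col1a2, 127 lie in annotated exons. No member window held TGANTCA (7.81%). The GGGCGG nearest to the start of Col5a3 runs across it, from −4 to 2. A match describes letters in this window and no binding was measured.

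Of 25 tested genes that fold and export procollagen none passed the threshold with edgeR, against 2.48% of all tested genes. Among the 25, 18 had positive log2 fold changes and the median was 0.19, against 49.4% positive and −0.01 over all genes. DESeq2 called none of them either. Creb3l1, a transcription factor of the secretory pathway in collagen-producing cells, was 0.84 ± 0.28 higher in log2 units (adjusted p by edgeR = 0.145), and Tram2 was higher by 0.61 ± 0.20 (0.150). Serpinh1, the collagen chaperone HSP47, stood at 25.7 ± 5.90 CPM in the single colored and 18.6 ± 4.87 CPM in the double colored cells (adjusted p = 0.276), and Fkbp10, a prolyl isomerase of the endoplasmic reticulum, at 3.29 ± 0.669 and 2.10 ± 0.366 CPM (adjusted p = 0.220). Fkbp10 shares 6.58% of its exon length with Nt5c3b on the opposite strand. With the replicate block 4 of the 25 were higher, namely Tram2 (edgeR adjusted p = 0.0193), Serpinh1 (0.0203), Creb3l1 (0.0478) and P4ha3, beside 4.97% of all tested genes. Without the block P4ha3 had the largest log2 fold change of the 25, at 2.03 ± 0.80 (edgeR adjusted p = 0.279).

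Of 11 tested genes that trim procollagen or crosslink fibrils, 1 rose and 10 had positive log2 fold changes and the median was 0.39. Over all tested genes 2.32% rose, 49.4% were positive and the median was −0.01. Loxl3, a lysyl oxidase relative, rose from 2.11 ± 1.33 to 7.76 ± 3.61 CPM (log2 difference 1.88 ± 0.43, adjusted p by edgeR = 0.0386). Its call was lost without any 1 library other than replicate 1 of the double colored or 3 of the single colored group (adjusted p up to 0.0888), and its exons share 12.8% of their length with Htra2, which lies on the opposite strand. Lox had the larger log2 fold change of 2.01 ± 0.79 and a wide spread (22.8 ± 15.3 against 5.66 ± 4.77 CPM, adjusted p = 0.301). With the replicate block Lox was called at 2.18 (edgeR adjusted p = 9.47e-07), and with Loxl3 it made 2 of the 11, beside 4.97% of all tested genes higher under the block. Loxl1 (0.53 ± 0.30, adjusted p = 0.444) and Loxl4 (0.92 ± 0.52, adjusted p = 0.434) had smaller log2 fold changes.

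Of 14 tested matrix genes that bind fibrils, 1 rose and 11 had positive log2 fold changes and the median was 0.56. The shares over all tested genes were 2.32% risen and 49.4% positive. Fn1, whose fibronectin network serves as a scaffold for type I fibrils, rose from 77.9 ± 37.9 to 267 ± 115 CPM (log2 difference 1.78 ± 0.38, adjusted p by edgeR = 0.0374). The call was lost without replicate 2 or 3 of the double colored or 1 or 2 of the single colored group (adjusted p up to 0.293), and 3.50% of its exon length is shared with Apol7d. Comp, a thrombospondin of cartilage and tendon, had a log2 fold change of 1.95 ± 0.59, its relative Thbs2 one of 0.98 ± 0.28, and Tnxb, tenascin X, one of −0.64 ± 0.21 (adjusted p = 0.106, 0.0857 and 0.126). With the block 7 of the 14 were higher and 2 lower, namely Tnxb (edgeR adjusted p = 0.0184) and Dpt, beside 4.97% of all tested genes higher and 2.57% lower.

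Of 14 tested collagen receptors and enzymes of collagen breakdown, 1 rose and 11 had positive log2 fold changes and the median was 0.33. Among all tested genes 2.32% rose and 49.4% were positive. Lair1, an inhibitory collagen receptor of leukocytes, rose from 3.71 ± 0.350 to 9.56 ± 3.89 CPM (log2 difference 1.37 ± 0.25, adjusted p by edgeR = 0.00810) and passed the threshold in each of 8 fits without 1 library. The lymphocyte and macrophage marker sums given above were higher in the same libraries. Mmp14, a membrane-bound collagenase, stood 1.31 ± 0.36 higher on the log2 scale (adjusted p = 0.0854), the collagen uptake receptor gene Mrc2 0.67 ± 0.27 higher (0.249), and its macrophage relative Mrc1 had a log2 fold change of −0.40 ± 0.17 (0.276). With the block 3 of the 14 were higher, namely Lair1, Mmp14 (edgeR adjusted p = 0.000468) and Mrc2 (0.0167), beside 4.97% of all tested genes. The sign for Mrc1 turned with library totals alone, to 0.08.

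Of 35 other collagen genes 23 were tested, 1 rose and 17 had positive log2 fold changes and the median was 0.31. All tested genes together had 2.32% risen and 49.4% positive. Col6a5, a chain of beaded-filament collagen VI, rose from 0.564 ± 0.407 to 2.73 ± 0.875 CPM (log2 difference 2.26 ± 0.50, adjusted p by edgeR = 0.0238), with the call lost without replicate 1 or 2 of the double colored or 2 or 4 of the single colored group (adjusted p up to 0.0784). Col12a1 and Col16a1, which sit on the surface of fibrils, reached log2 fold changes of 2.02 ± 0.52 (adjusted p = 0.101) and 1.34 ± 0.37 (adjusted p = 0.0698). With the block both were called (edgeR adjusted p = 3.25e-06 and 0.0197), and 6 of the 23 were higher, beside 4.97% of all tested genes. Col18a1, of basement membranes, had one of 0.88 ± 0.35 (adjusted p = 0.235). Col2a1, the cartilage fibril collagen, had 25 reads in all single and 4 in all double colored libraries and was not tested.

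**Figure D4:**
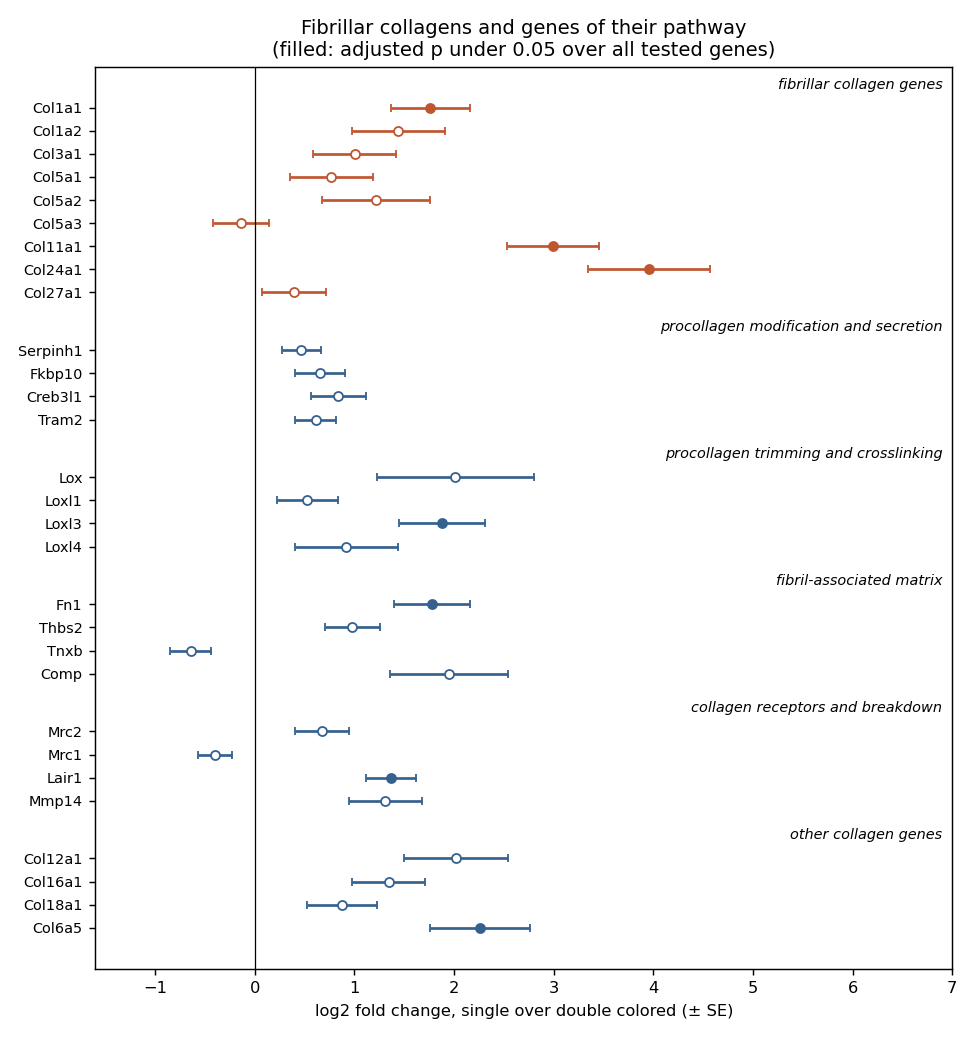
Log2 fold change of single over double colored cells with its SE (horizontal axis) for the 9 fibrillar collagen genes (orange) and for the 4 genes of smallest p in each pathway list (blue); filled points passed an adjusted p of 0.05 over all 12466 tested genes. The fibrillar collagens run from −0.13 for Col5a3 to 3.96 for Col24a1, and the 4 folding and export genes drawn from 0.47 to 0.84. P4ha3, with a larger log2 fold change, is not drawn.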

How the data were processed

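RNA of 8 libraries (4 single colored, 4 double colored) was sequenced by the submitters, grouped here by the sample labels. Reads were aligned to mm9 by STAR 2.5.2b, and featureCounts (Subread) assigned them to genes, per the submitters' processing notes, while the file headers name a mapping quality of 30. The authors deposited whole raw counts per gene, made by assigning aligned reads to exons per the file headers. These counts were recorded as the expected count class because of their column names, and as deposited by the authors every expected count was whole, so no rounding changed a value. The authors' deposited log2 fold changes and p-values with FDR come from a test that is not named in the sources used here.

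Symbols matched 32919 of 37991 genes. Counts were filtered with filterByExpr (minimum count 10), scaled by TMM and tested with edgeR 4.0.16 (R 4.3.3, limma 3.58.1; robust quasi-likelihood test, 2 groups, Benjamini-Hochberg adjustment over 12466 genes, threshold 0.05). SE is the log2 fold change over the root of F. The steps were tested on simulated data. Exon overlaps came from bedtools 2.31.1, log2 CPM used a prior count of 2, and a count of 0 was given a floor of 3 reads. All 9 members are named, with the 4 genes of smallest p in each list. The 8 other genes most like each of 2 profiles are also named, predicted genes and genes without a symbol left out. P4ha3, Dpt and the single cell type markers were named after their values were seen. The members and lists were chosen with earlier results of these data known. Same-numbered libraries were treated as pairs in an alternative fit, since the groups share replicate numbers. Their deviations from the group means correlated at 0.257, 0.126, 0.136 and 0.139. Libraries of different number correlated at −0.213 to 0.108, and deviations cancel within a group, which lowers these values. Alternatives were DESeq2 1.42.0, other filters and scalings, the replicate block and omission of each library.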

Additional observations from a re-analysis of the deposited data

Results flagged for a closer look

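Among 80 groups of 4 libraries checked for 1 library far from the rest (gap over range above the critical value of Dixon), 4 stood out. The groups reuse the same genes and libraries in several measures, so no number expected by chance is given. Col27a1 in single colored cells was 7.42 CPM in replicate 1 and 2.94 to 3.04 CPM in the others (gap 0.978 of the range). The summed cardiomyocyte markers of the same replicate were lowest, at 5252 against 8576 to 9236 CPM (0.834), and its summed lymphocyte markers highest, at 30.7 against 16.0 to 17.4 CPM (0.904). Col11a1 per 1000 CPM of fibroblast markers was 51.7 in single colored replicate 3 and 12.1 to 17.6 in the others (0.861).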

How the results depend on the processing

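Over all genes 309 were called (289 higher, 20 lower), against 556 with DESeq2 (455 and 101), 805 without a filter (642 and 163), 97 with a filter at 5 CPM (93 and 4), 1390 with library totals alone (1389 and 1), 939 with the replicate block (619 and 320) and 146 without both libraries numbered 1 (135 and 11). Leaving out 1 library gave 134 to 304, lowest without double colored replicate 4 (134), single colored replicate 1 (142) and double colored replicate 2 (191). Tested genes numbered 12466 in the main fit, with DESeq2, with totals alone and with the block, 23680 without a filter and 4776 at 5 CPM. Without both libraries numbered 1 there were 12410 tested genes, and 12637 to 12952 on leaving out 1 library. Of the 9 fibrillar genes 3 were called, against 7 without a filter, 0 of the 5 tested at 5 CPM, 6 with totals alone, 7 with the block, and 2 to 3 on leaving out 1 library. For folding and export (0) the counts were 2 without a filter, 7 with totals alone, 4 with the block and 0 to 0 on omission. For trimming and crosslinking (1) they were 2, 4 and 2 in that order, 0 at 5 CPM and 0 to 1 on omission. For fibril-associated matrix (1) they were 7, 5 and 9, 3 with DESeq2, 0 at 5 CPM, 0 without both libraries numbered 1 and 0 to 2 on omission, where the 1 call without single colored replicate 1 was Dpt, lower in single colored cells. For receptors and breakdown (1) they were 3, 4 and 3, 2 with DESeq2 and 1 to 1 on omission. For other collagens (1) they were 4, 5 and 6, 3 with DESeq2, 0 at 5 CPM, 0 without both libraries numbered 1 and 0 to 2 on omission. The 5 CPM filter and omissions leave fewer genes or samples; the cause of the other shifts was not tested. With mitochondrially encoded genes left out the adjusted p of Col1a1 was 0.0504 (edgeR). Depth limits Col24a1 and Col11a1 most, at 12 and 62 reads in all double colored libraries.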
